A study of Homo sapiens with 9 samples.

Results

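The metallothioneins measured here are 11 probe sets annotated to 7 human genes, MT1E, MT1F, MT1G, MT1H, MT1M, MT1X and MT2A, of 22215 probe sets other than array controls. They were taken by gene symbol alone, and 0 of them carried a further symbol. Each probe set was kept apart, because the paralogs are nearly identical in sequence and 9 of the 11 bear Affymetrix's suffix x_at, which marks sets holding probes that also match other transcripts. RNA came from LNCaP, an established human prostate cancer line from a lymph node metastasis that responds to androgen. Every culture was first kept for 2 days in 10% serum that had been stripped with charcoal to take out steroid hormones. One set of 3 cultures was then given 20 µM gedunin, a plant limonoid that impairs HSP90 function, together with 1 nM R1881, a synthetic androgen, for 24 h. A second set of 3 was given 1 nM R1881 with DMSO, for 24 h by the descriptions and 6 h by the titles. The third set of 3 was given ethanol and DMSO as vehicle for 24 h. Gedunin was always given together with R1881, so these arrays hold no measurement of gedunin alone. Values are RMA-summarised intensities on a linear scale, 1 array per culture, and the titles mark the cultures as biological replicates.

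Metallothioneins are small cysteine-rich proteins that bind zinc and copper, take up cadmium and other toxic metals, and react with oxidants through their thiols. Their genes sit side by side on chromosome 16, and the classical switch is MTF1, a zinc-sensing transcription factor that binds metal response elements in their promoters. Glucocorticoids and oxidative stress also induce some of them. Prostate epithelium is known for its high zinc content, and malignant prostate cells for a much lower one.

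The arrays labelled R1881 and labelled vehicle go against their labels. Of the androgen-induced genes KLK2, KLK3, TMPRSS2 and FKBP5, 4 of 4 were lower on the arrays labelled R1881 than on those labelled vehicle. Of all genes, each by its brightest probe set, 13.2% were lower there. The log2 fold changes of the 4 ran from -5.33 to -3.14. The largest, that of FKBP5, is approximate. FKBP5 averaged 45.1 on the arrays labelled R1881, under the lowest array median of 52.4, and may lie near background there. KLK3, the gene of prostate-specific antigen, measured 1375, 1424 and 1224 on the arrays labelled R1881, against 11947, 12290 and 11280 on the arrays labelled vehicle. Both groups are therefore called by their labels, and every direction between them rests on those labels. Array medians lay between 52.4 and 54.5, and a probe set averaging under the lowest of them is called dim here. Dim is a working limit and not a measured background level. Luminal prostate markers lay at or over 52.4 on all arrays for 7 of 7 measured genes. The same held for 0 of 4 basal epithelial, 1 of 4 leukocyte and 4 of 6 fibroblast markers. The luminal list had calls in every comparison, with 5 of 7 higher and 2 lower for gedunin against labelled R1881, 1 and 6 for gedunin against labelled vehicle, and 2 and 5 for labelled R1881 against labelled vehicle. It shares KLK2, KLK3 and TMPRSS2 with the androgen-induced genes, and its part in the metallothionein values was not tested. Of all genes 13.7% were higher and 13% lower for gedunin against labelled R1881, and 14.8% and 11.4% for gedunin against labelled vehicle. For labelled R1881 against labelled vehicle the shares were 16.3% and 13.2%. The basal epithelial, leukocyte and fibroblast lists each had at most 1 gene that passed the test in any comparison. Lists this short show nothing particular beside those shares. In these bulk cultures fewer cells of a type cannot be told apart from less RNA per cell.

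Promoters of 3 responding genes are shown because several members moved together and because the binding motif of MTF1 can be read in them directly. The RefSeq table of promoters (GRCh38.p14, 250 bases before to 50 after the annotated start, 300 in all) held 3 of the 7 member genes. It lacked MT1F and MT1G, which also rose, and MT1E and MT1M, which did not pass. The matches therefore cannot set members that rose apart from members that did not. All lie on the plus strand, MT2A at chr16:56608334-56608633, MT1H at chr16:56669564-56669863 and MT1X at chr16:56682220-56682519. Capitals mark matches to the metal response core, TGCACNC or TGCGCNC on either strand.
MT2A: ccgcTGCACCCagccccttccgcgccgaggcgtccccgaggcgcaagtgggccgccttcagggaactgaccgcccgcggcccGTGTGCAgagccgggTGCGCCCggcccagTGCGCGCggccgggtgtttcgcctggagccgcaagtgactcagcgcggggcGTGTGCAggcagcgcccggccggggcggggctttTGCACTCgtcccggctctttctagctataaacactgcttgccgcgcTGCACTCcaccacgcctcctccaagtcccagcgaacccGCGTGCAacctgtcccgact
MT1H: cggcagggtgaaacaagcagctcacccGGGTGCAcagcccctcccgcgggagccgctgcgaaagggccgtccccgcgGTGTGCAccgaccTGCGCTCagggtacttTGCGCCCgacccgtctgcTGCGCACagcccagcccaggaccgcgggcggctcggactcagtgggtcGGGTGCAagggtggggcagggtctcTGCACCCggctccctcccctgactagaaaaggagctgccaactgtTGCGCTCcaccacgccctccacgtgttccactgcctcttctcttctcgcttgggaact
MT1X: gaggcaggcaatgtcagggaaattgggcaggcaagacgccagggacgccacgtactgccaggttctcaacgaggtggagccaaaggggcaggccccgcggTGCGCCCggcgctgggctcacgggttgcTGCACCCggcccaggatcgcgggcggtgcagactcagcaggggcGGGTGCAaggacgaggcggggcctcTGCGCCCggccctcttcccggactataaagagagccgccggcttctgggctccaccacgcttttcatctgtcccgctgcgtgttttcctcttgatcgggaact

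The metal response core matched 8 times in the MT2A promoter, 8 times in MT1H and 4 times in MT1X. Of 35116 promoters of this length, 29.6% held at least 1 match, 0.0199% held at least 8 and 0.601% at least 4. The matches in MT1H and MT1X line up near the start, with 1 on the opposite strand at 78 to 72 bases before it and 1 on the gene's strand at 53 to 47 bases before it in both. MT2A held a match at 54 to 48 bases before its start. The antioxidant response core TGACNNNGC, the motif type bound by NRF2, matched once in MT2A and once in MT1X, and 13.3% of all promoters held it. The MT2A match at 104 to 96 bases before the start overlapped the only AP-1 site (TGACTCA, in 4.95% of promoters). The heat shock element core GAANNTTC, in 6.77% of promoters, and the full palindromic site of steroid receptors, in 0.39%, matched 0 times in the 3 windows, which says only that these letters are not there.

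**Figure D1:**
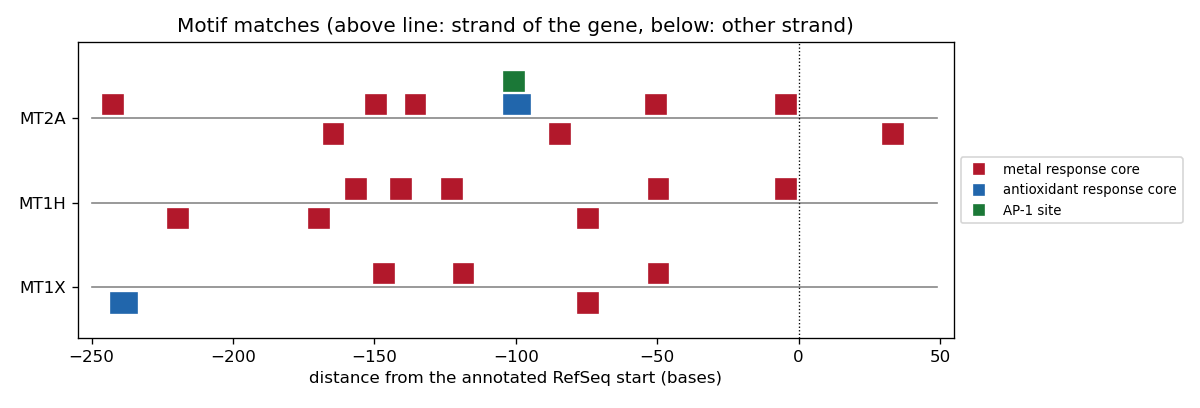
Matches of 3 motif types in the promoters of MT2A, MT1H and MT1X, by distance in bases from the annotated RefSeq start (dotted line). Boxes above a line are on the strand of the gene and boxes below on the other strand. The metal response core has 8, 8 and 4 matches in these windows, 1 of those in MT2A after the start, and no box marks measured binding.

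Most metallothionein probe sets that were not dim were moderately higher on the arrays given gedunin together with R1881. Against the arrays labelled R1881, 7 of the 11 probe sets were higher and 0 lower (limma, Benjamini-Hochberg adjusted p under 0.05 over all probe sets), beside 12.4% higher and 11.9% lower among all probe sets. By annotation the 7 belong to 5 genes, MT2A, MT1X, MT1G, MT1H and MT1F, and they rose 1.30-fold to 1.68-fold. All 7 are x_at sets, whose probes may read several paralogs, so they may not report 5 separate rises. The sets without that suffix, MT1G 210472_at and MT1M 217546_at, were dim and did not pass. Against the arrays labelled vehicle the count was again 7 higher and 0 lower, beside 12.9% and 10.6% of all probe sets, with folds of 1.18 to 1.73. The median log2 fold change of the 11 was 0.56 against labelled R1881 and 0.47 against labelled vehicle, beside -0.01 and -0.01 over all probe sets. Both comparisons use the same 3 gedunin arrays. Because the gedunin arrays lay above both other groups, the direction of these 7 is the same whichever of the other groups received androgen. In the comparison with whichever group lacked androgen, R1881 and gedunin cannot be told apart. If the 6 h in the titles holds, treatment time and gedunin cannot be told apart in the first comparison. If the labels were exchanged, this may hold for the second comparison in its place.

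MT2A is usually the most abundantly expressed human metallothionein and a basal supplier of zinc-binding capacity. Its probe set 212185_x_at measured 981, 911 and 918 on the gedunin arrays. It measured 622, 605 and 580 on the arrays labelled R1881 and 549, 509 and 569 on the arrays labelled vehicle. The gedunin arrays stood clear of all 6 others, and the arrays labelled R1881 lay just above those labelled vehicle without overlap. MT2A rose 1.56-fold against labelled R1881 (log2 fold change 0.64 ± 0.06, SE, limma adjusted p = 5.28e-06). Against labelled vehicle it rose 1.73-fold (0.79 ± 0.06, adjusted p = 8.65e-07). The small step between labelled R1881 and labelled vehicle, 0.15 ± 0.06, did not pass (adjusted p = 0.0924 in limma). It did with the arrays quantile-normalised again (adjusted p = 0.0354) or with a trended, robust variance (adjusted p = 0.0419).

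MT1G and MT1H are neighbouring inducible type 1 genes whose products bind zinc and other metals. MT1G measured 368, 368 and 373 at probe set 204745_x_at on the gedunin arrays, against 248, 258 and 228 on the arrays labelled R1881 and 232, 227 and 232 on the arrays labelled vehicle. The gedunin values were nearly equal to one another, and the other 2 groups overlapped. MT1G rose 1.51-fold against labelled R1881 (0.60 ± 0.06, limma adjusted p = 5.80e-06) and 1.60-fold against labelled vehicle (0.68 ± 0.06, adjusted p = 1.90e-06). MT1H measured 365, 375 and 371 on the gedunin arrays, against 257, 255 and 228 on the arrays labelled R1881 and 245, 224 and 257 on the arrays labelled vehicle. Its pattern matched that of MT1G in that only the gedunin group stood apart. MT1H rose by 0.59 ± 0.07 on the log2 scale against labelled R1881 (limma adjusted p = 2.63e-05) and 1.53-fold against labelled vehicle (0.62 ± 0.07, adjusted p = 1.99e-05). The second MT1G probe set, 210472_at, was dim at 20.7 to 27.2 over the 9 arrays, with 3 arrays at exactly the same value, and passed in none of the 3 comparisons by limma (adjusted p of 0.538 to 0.781), nor at an unadjusted p under 0.05.

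MT1X, the member at the far end of the gene cluster from MT2A, was read by a pair of probe sets. At 208581_x_at it measured 472, 504 and 462 on the gedunin arrays, against 318, 330 and 316 on the arrays labelled R1881 and 324, 340 and 339 on the arrays labelled vehicle. This probe set rose 1.49-fold against labelled R1881 (0.58 ± 0.06, limma adjusted p = 5.73e-06) and 1.43-fold against labelled vehicle (0.52 ± 0.06, adjusted p = 1.64e-05). The platform annotation also gives MT1X for 204326_x_at, but the transcript listed beside it is that of MT1L, a neighbouring transcribed pseudogene, in the RefSeq gene table. It measured 395, 386 and 427 on the gedunin arrays, against 285, 304 and 344 on the arrays labelled R1881 and 322, 357 and 348 on the arrays labelled vehicle. The gedunin arrays were again highest, by less. This probe set rose 1.30-fold against labelled R1881 (0.38 ± 0.08, limma adjusted p = 0.00232) and 1.18-fold against labelled vehicle (0.24 ± 0.08, adjusted p = 0.0396). The last of these calls was lost on leaving out any gedunin array, vehicle replicate 1 or 3, or R1881 replicate 2 (adjusted p of 0.0508 to 0.152).

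MT1F, an inducible type 1 gene that lies before MT1G in the cluster, was also read by a pair of sets, and both rose with gedunin. At 213629_x_at it measured 367, 390 and 326 on the gedunin arrays, against 218, 229 and 196 on the arrays labelled R1881 and 257, 249 and 273 on the arrays labelled vehicle. At 217165_x_at it measured 366, 423 and 421 on the gedunin arrays, against 282, 259 and 277 on the arrays labelled R1881 and 265, 261 and 259 on the arrays labelled vehicle. The first set rose 1.68-fold against labelled R1881 (0.75 ± 0.08, limma adjusted p = 1.22e-05) and 1.39-fold against labelled vehicle (0.47 ± 0.08, adjusted p = 0.000645). The second rose 1.48-fold (0.56 ± 0.07, adjusted p = 3.14e-05) and 1.54-fold (0.62 ± 0.07, adjusted p = 1.46e-05) in the same order. In the comparison of labelled R1881 with labelled vehicle only the first differed, as described further on.

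MT1E and MT1M did not pass the test in these comparisons. MT1E measured 216, 227 and 217 at 212859_x_at on the gedunin arrays, against 211, 211 and 192 on the arrays labelled R1881 and 216, 212 and 233 on the arrays labelled vehicle. Its log2 fold change was 0.10 ± 0.06 against labelled R1881 (limma adjusted p = 0.287) and 0.00 ± 0.06 against labelled vehicle (adjusted p = 0.994). The 95% intervals ran from -0.03 to 0.24 and from -0.13 to 0.13. They end below the estimates of the 7 probe sets that rose in each comparison. They still overlap the intervals of MT1X at 204326_x_at, 0.21 to 0.54 and 0.07 to 0.40. The difference between this MT1E set and the sets that rose was not tested. At the second MT1E set, 216336_x_at, the gedunin arrays measured 120, 116 and 122, against 111, 109 and 103 on the arrays labelled R1881 and 113, 111 and 110 on the arrays labelled vehicle. The gedunin arrays lay above all 6 others, yet the difference of 0.14 ± 0.05 from labelled R1881 missed the threshold (limma adjusted p = 0.0762). It passed with an offset of 16 before the log (adjusted p = 0.0324) or with dim probe sets left out of the test (adjusted p = 0.0394). MT1M, read by 217546_at, was dim throughout at 12.6 to 14.4 and passed in none of the 3 comparisons by limma (adjusted p of 0.505 to 0.774) nor at an unadjusted p under 0.05. Whether MT1M RNA was absent or below what this probe set registers cannot be read from these values.

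**Figure D2:**
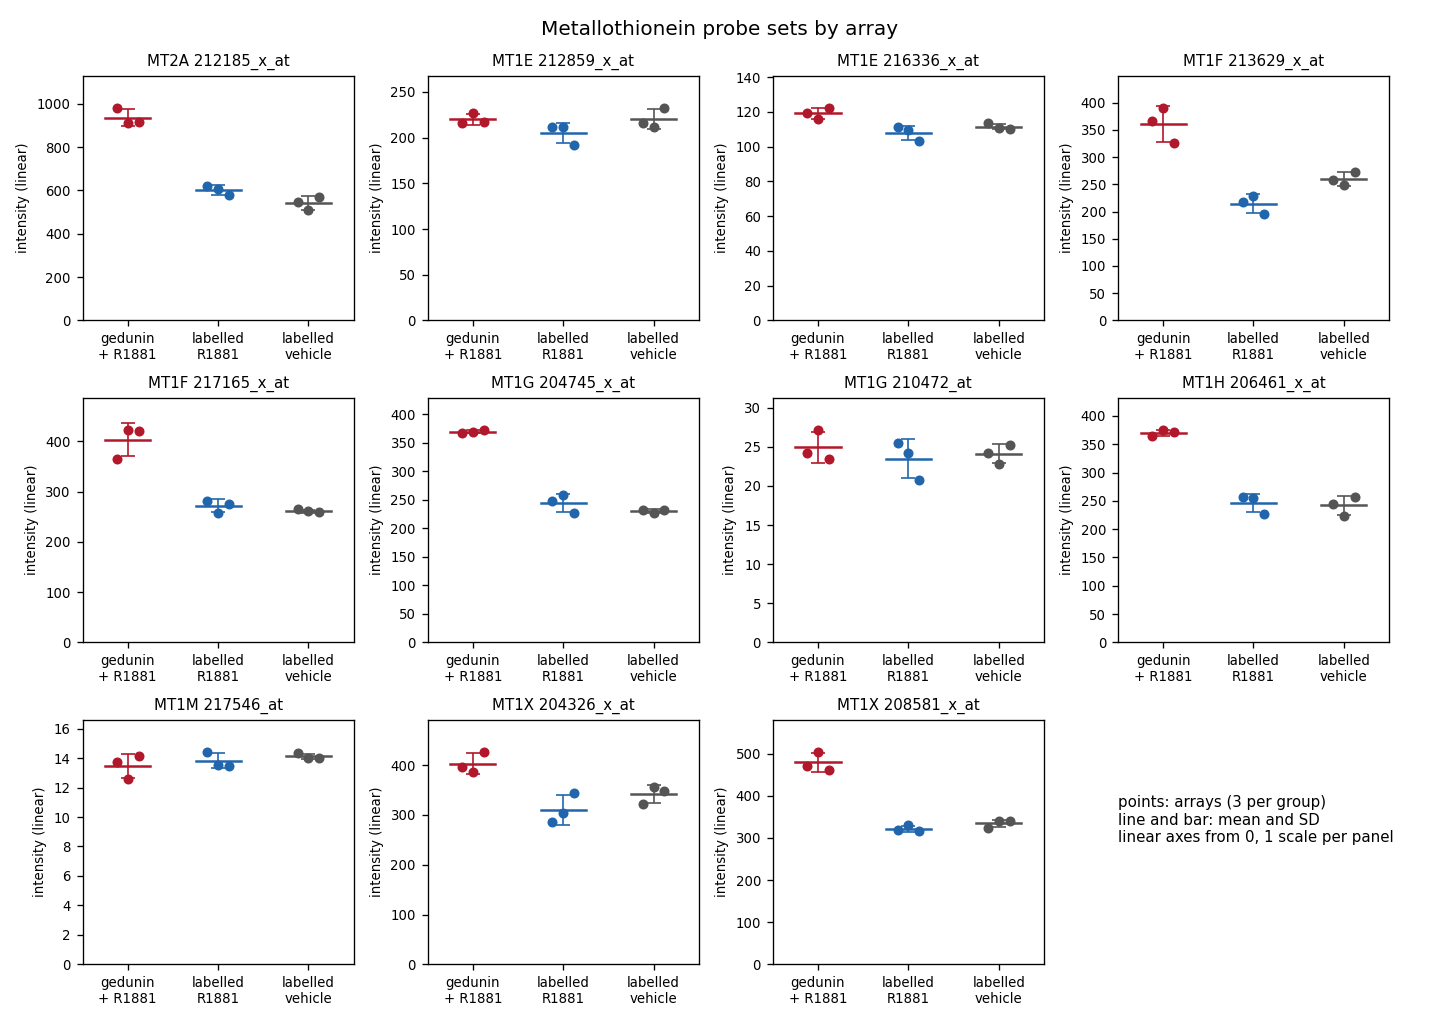
Intensity of the 11 metallothionein probe sets on each of 9 arrays, on linear axes from 0 with a scale of their own per panel. Points are arrays, and lines with bars are group means with SD (n = 3). In 7 panels the gedunin group lies above both other groups, by amounts that passed the test. In the panel of the second MT1E set it also lies above both, by 0.14 on the log2 scale against labelled R1881, which did not pass.

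Few metallothionein probe sets passed between labelled R1881 and labelled vehicle. Of the 11 probe sets 0 were higher and 1 was lower in limma, beside 14.8% and 12.2% of all probe sets, and 2 had an unadjusted p under 0.05. The median log2 fold change of the 11 was -0.04, beside 0.00 over all probe sets. The exception was MT1F at 213629_x_at, which fell by 0.28 ± 0.08 (log2, SE, limma adjusted p = 0.0193), a level 1.21-fold lower on the arrays labelled R1881. The other MT1F set was at 0.06 ± 0.07 (adjusted p = 0.596), and the difference between the sets was not tested. The fall was lost with the arrays quantile-normalised again (adjusted p = 0.0575), without vehicle replicate 3 (0.081) and without R1881 replicate 3 (0.0754). By the F-test of limma across the 3 groups, the same 7 probe sets that rose with gedunin passed and 4 did not, against 35.1% of all probe sets. In the order of group levels, the gedunin group was highest for these 7, and the other 2 groups did not differ beyond the test for 6 of them.

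**Figure D3:**
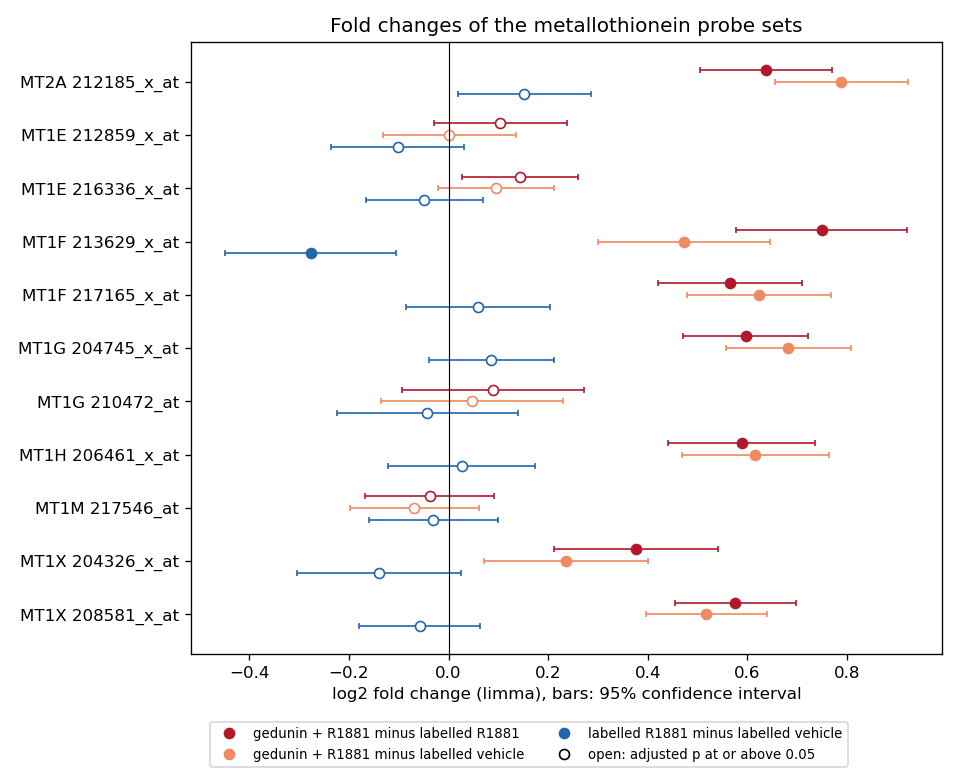
Log2 fold changes of the 11 metallothionein probe sets in 3 comparisons, with 95% confidence intervals from limma; filled points have an adjusted p under 0.05. The 7 rises in each gedunin comparison lie between 0.24 and 0.79, and the points of labelled R1881 minus labelled vehicle scatter around 0.

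Metallothionein-like probe sets outside the 7 genes differed among themselves. MT1HL1, a retrotransposed relative of MT1H on another chromosome, measured 736, 699 and 771 on the gedunin arrays, against 535, 565 and 485 on the arrays labelled R1881 and 527, 520 and 538 on the arrays labelled vehicle. It rose 1.39-fold against each (limma adjusted p = 0.000119 and 0.000135), and its x_at probes may also read the type 1 genes. MT3, known from brain, was dim at 29.0 to 40.2, and MT4, known from stratified epithelium, measured 62.1 to 73.2. Neither passed in any of the 3 comparisons by limma (adjusted p of 0.505 to 0.997) nor at an unadjusted p under 0.05. MT3 lies next to MT2A in the cluster, on the side away from MT1E, and MT4 lies beyond MT3.

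Genes beside the cluster were looked up as well. Of the 10 protein-coding genes that flank it, 5 to each side in RefSeq order, 7 had a probe set annotated to them alone. Against labelled R1881, 1 was higher and 1 lower (median log2 fold change 0.03), and against labelled vehicle again 1 and 1 (median 0.01). These counts are near the shares of all genes, 13.7% and 13% in the first comparison and 14.8% and 11.4% in the second. The genes that changed were NUP93, a nuclear pore subunit (-0.52 ± 0.06 and 0.81 ± 0.06 in this order), and HERPUD1, an endoplasmic reticulum stress gene (1.14 ± 0.06 and -0.54 ± 0.06). The neighbours were chosen after the values of the members had been seen.

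The switch of the family and some of its described targets were measured beside it. For the genes from here on, each is represented by its brightest probe set with 1 symbol, and calls are those of the same fit. The list called zinc sensing genes here held MTF1 and its described targets SLC30A1 and GCLC. SLC30A1 is counted again among the zinc exporters, and GCLC among the metal and oxidant stress genes. Zinc sensing genes rose in 3 of 3 measured members against labelled R1881, with 0 lower, beside 13.7% higher and 13% lower among all genes. Against labelled vehicle 2 of 3 were higher and 0 lower, beside 14.8% and 11.4% of all genes. SLC30A1, a zinc exporter of the plasma membrane and a known MTF1 target, measured 251, 233 and 264 on the gedunin arrays. It measured 157, 168 and 169 on the arrays labelled R1881 and 200, 204 and 196 on the arrays labelled vehicle. The 3 groups did not overlap at all. SLC30A1 rose 1.51-fold against labelled R1881 (0.60 ± 0.06, limma adjusted p = 8.85e-06) and 1.24-fold against labelled vehicle (0.32 ± 0.06, adjusted p = 0.00182), and it was lower on the arrays labelled R1881 than on those labelled vehicle (-0.28 ± 0.06, adjusted p = 0.00346).

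MTF1 itself measured 123, 119 and 135 at 205322_s_at on the gedunin arrays, against 113, 101 and 101 on the arrays labelled R1881 and 112, 109 and 115 on the arrays labelled vehicle. The rise of 0.26 ± 0.07 against labelled R1881 passed in limma (adjusted p = 0.0107), but not without gedunin replicate 3 (adjusted p = 0.0547). Against labelled vehicle the 0.17 ± 0.07 did not pass (adjusted p = 0.0908). Its other probe set, 205323_s_at, was at 0.15 ± 0.08 and 0.08 ± 0.08 and passed in neither. GCLC, the catalytic subunit of glutamate-cysteine ligase and an MTF1 target described in mouse, rose by 1.06 ± 0.06 and 1.71 ± 0.06.

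Zinc transporters passed the test in both directions. Of all genes 13.7% were higher and 13% lower against labelled R1881, and 14.8% and 11.4% against labelled vehicle, and with lists this short the counts show nothing particular to them. Among exporters, 2 of 7 were higher and 2 lower against labelled R1881, and 2 and 1 against labelled vehicle. SLC30A4, which loads zinc into vesicles, measured 74.7, 83 and 86 on the gedunin arrays, against 289, 302 and 313 on the arrays labelled R1881 and 192, 207 and 192 on the arrays labelled vehicle. It was 3.71-fold and 2.42-fold lower on the gedunin arrays than in these groups. SLC30A5, an exporter of the early secretory pathway, rose by 0.57 ± 0.07 and 0.30 ± 0.07. SLC30A9 fell by 0.43 ± 0.07 against labelled R1881. Among importers, 2 of 8 were higher and 2 lower against labelled R1881, and 1 and 3 against labelled vehicle. SLC39A8, an importer that also carries manganese and cadmium, measured 159, 146 and 171 on the gedunin arrays, against 394, 402 and 378 on the arrays labelled R1881 and 190, 200 and 193 on the arrays labelled vehicle. It was 2.47-fold and 1.23-fold lower with gedunin. SLC39A4, an importer of the plasma membrane, fell by 0.64 ± 0.07 and 0.96 ± 0.07. SLC39A7, which releases zinc from the endoplasmic reticulum, rose by 1.10 ± 0.16 against labelled R1881 and was at 0.00 ± 0.16 against labelled vehicle. It was dim on the arrays labelled R1881, so this rise is approximate. SLC39A1 rose by 0.23 ± 0.06 against labelled R1881, and SLC39A9 rose by 0.32 ± 0.08 and SLC39A6 fell by 0.23 ± 0.06 against labelled vehicle. The call of SLC39A6 was lost without gedunin replicate 2 (limma adjusted p = 0.0525).

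Of copper handling genes 2 of 11 were higher and 2 lower against labelled R1881, beside 13.7% and 13% of all genes, and 5 and 2 against labelled vehicle, beside 14.8% and 11.4%. SLC31A1, the copper importer of the plasma membrane, measured 312, 350 and 270 on the gedunin arrays, against 139, 125 and 161 on the arrays labelled R1881 and 178, 169 and 178 on the arrays labelled vehicle. It rose by 1.13 ± 0.10 and 0.82 ± 0.10. SOD1, the copper and zinc superoxide dismutase, rose by 0.38 ± 0.05 and 0.66 ± 0.05. SCO2, a copper chaperone for cytochrome oxidase, fell by 0.59 ± 0.11 and 0.55 ± 0.11, and COX11, another, fell by 0.44 ± 0.07 against labelled R1881 but rose by 0.22 ± 0.07 against labelled vehicle. The rise of COX11 was lost without any 1 gedunin array or without vehicle replicate 1 or 3 (limma adjusted p of 0.0633 to 0.124). ATP7A, a copper-exporting ATPase, rose by 0.60 ± 0.09 against labelled vehicle and was at 0.23 ± 0.09 against labelled R1881, which passed in limma only without vehicle replicate 1 (adjusted p = 0.00632) or with the 6 compared arrays alone in the fit (0.00885). STEAP4, a metalloreductase, was dim in the gedunin group and in the group labelled R1881, at 11.4 to 13.4, and fell by 2.34 ± 0.07 against labelled vehicle, so that size is approximate.

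**Figure D4:**
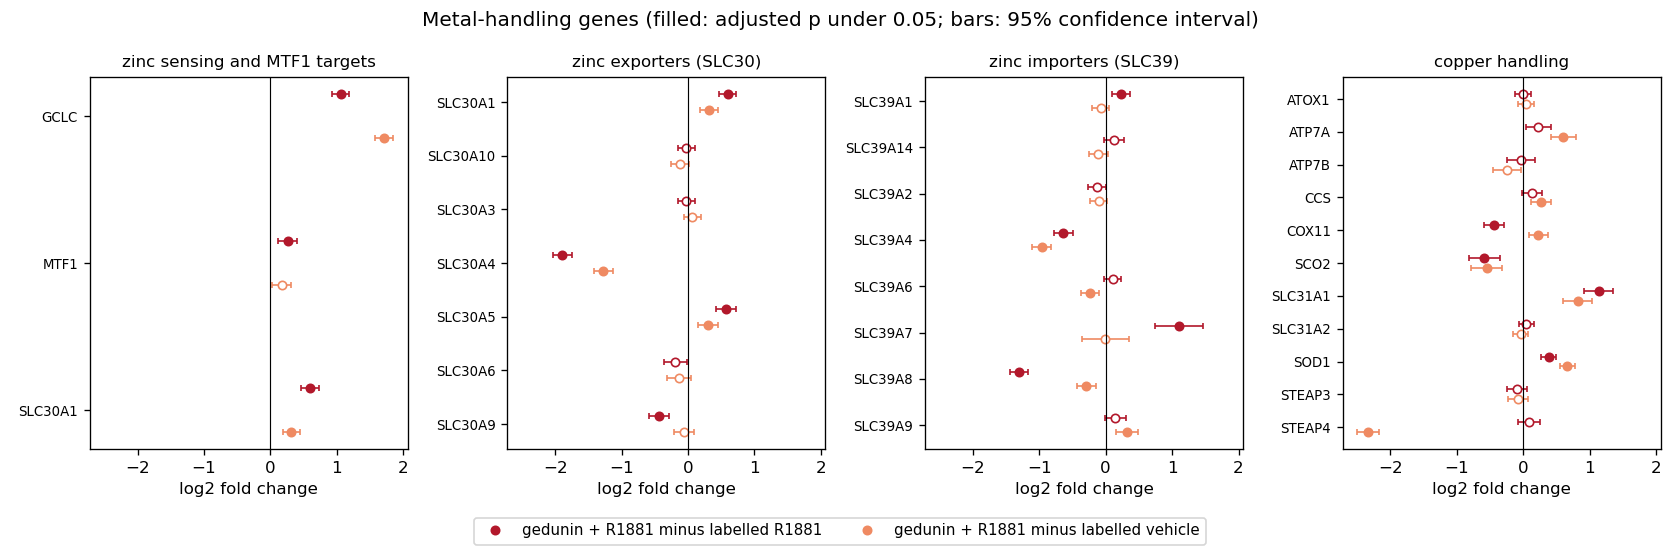
Log2 fold changes of zinc sensing, zinc exporter, zinc importer and copper handling genes, gedunin plus R1881 against labelled R1881 (dark red) and against labelled vehicle (light red), with 95% confidence intervals. Filled points have an adjusted p under 0.05. SLC30A1 and GCLC rise in both, while SLC30A4, SLC39A4 and SLC39A8 lie below 0 in both.

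Other genes that metals and oxidants induce had a larger median change than the metallothioneins. Of 11 measured genes of that list, 10 were higher and 0 lower against labelled R1881 (median log2 fold change 2.02), and 9 and 0 against labelled vehicle (median 1.85). Of all genes 13.7% were higher and 13% lower in the first comparison, and 14.8% and 11.4% in the second. HMOX1, haem oxygenase 1, measured 2861, 2040 and 1936 on the gedunin arrays, against 41.0, 47.6 and 43.6 on the arrays labelled R1881 and 48.4, 39.2 and 42.0 on the arrays labelled vehicle. Its rises of 5.67 ± 0.13 and 5.70 ± 0.13 are approximate, since it was dim in both other groups. SLC7A11, the cystine transporter, rose by 3.55 ± 0.06 and 2.84 ± 0.06, and GCLM, which makes the regulatory partner of GCLC in glutathione synthesis, by 3.10 ± 0.09 and 2.75 ± 0.09. ATF3, a stress-induced transcription factor, rose by 2.51 ± 0.08 against labelled R1881, and TXNRD1, thioredoxin reductase 1, by 2.44 ± 0.06 against labelled vehicle. HSPA6, a strictly inducible HSP70 gene, was dim at 29.0 to 34.4 and did not pass in either comparison (limma adjusted p = 0.994 and 0.585). DNAJB1, a further chaperone gene of that list, was not dim. It rose by 0.90 ± 0.06 against labelled R1881 and 0.57 ± 0.06 against labelled vehicle (limma adjusted p = 1.20e-07 and 7.61e-06). Glucocorticoid-induced genes, the other classical setting of metallothionein induction, had 4 of 7 higher and 3 lower against labelled R1881, and 1 and 6 against labelled vehicle. That list shares FKBP5 with the androgen-induced genes, so androgen and glucocorticoid regulation cannot be told apart in its counts.

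Between labelled R1881 and labelled vehicle these lists gave 1 higher and 1 lower of 3 zinc sensing genes, 2 and 2 of 7 exporters, 1 and 5 of 8 importers, 3 and 2 of 11 copper genes, 2 and 5 of 11 metal and oxidant stress genes and 1 and 4 of 7 glucocorticoid-induced genes. Of all genes 16.3% were higher and 13.2% lower. GCLC (0.66 ± 0.06), SLC30A4 (0.61 ± 0.07), SLC30A9 (0.37 ± 0.07), SLC39A8 (1.01 ± 0.06), COX11 (0.66 ± 0.07) and ATP7A (0.37 ± 0.09) were higher on the arrays labelled R1881. SLC30A5 (-0.27 ± 0.07), SLC39A6 (-0.34 ± 0.06), SLC39A4 (-0.33 ± 0.07), SLC39A7 (-1.11 ± 0.16), SLC31A1 (-0.31 ± 0.10), STEAP4 (-2.43 ± 0.07), GSR (-0.80 ± 0.06), SLC7A11 (-0.70 ± 0.06) and ATF3 (-0.67 ± 0.08) were lower there. HMOX1 was at 0.03 ± 0.13. The falls of SLC39A7 and STEAP4 are approximate, because both were dim on the arrays labelled R1881. The fall of SLC31A1 was lost without gedunin replicate 1, R1881 replicate 1 or 2, or any vehicle array (limma adjusted p of 0.0517 to 0.144). That of SLC30A5 was lost without R1881 replicate 2 (adjusted p = 0.0517).

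The genes whose arrays most resembled the metallothioneins were found by distance. The 9 member probe sets that were not dim were averaged on the log2 scale and centred on their mean over 9 arrays, which gave 0.31 ± 0.02 for the gedunin group, -0.17 ± 0.04 for the group labelled R1881 and -0.14 ± 0.03 for the group labelled vehicle (SD, n = 3). Each of 5647 other probe sets that had 1 symbol, were not dim and passed the F-test was scored by its root mean square difference from that profile on the log2 scale, where the median was 0.314. The closest were ENAH, an actin regulator (0.0406), TPD52L1 (0.0412), both probe sets of TUBA1C, an alpha-tubulin (0.0431 and 0.0471), and CDYL, a chromatin protein (0.0472). ENAH measured 482, 483 and 463 on the gedunin arrays, against 341, 341 and 338 on the arrays labelled R1881 and 355, 362 and 378 on the arrays labelled vehicle. The likeness describes these 9 arrays only.

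**Figure D5:**
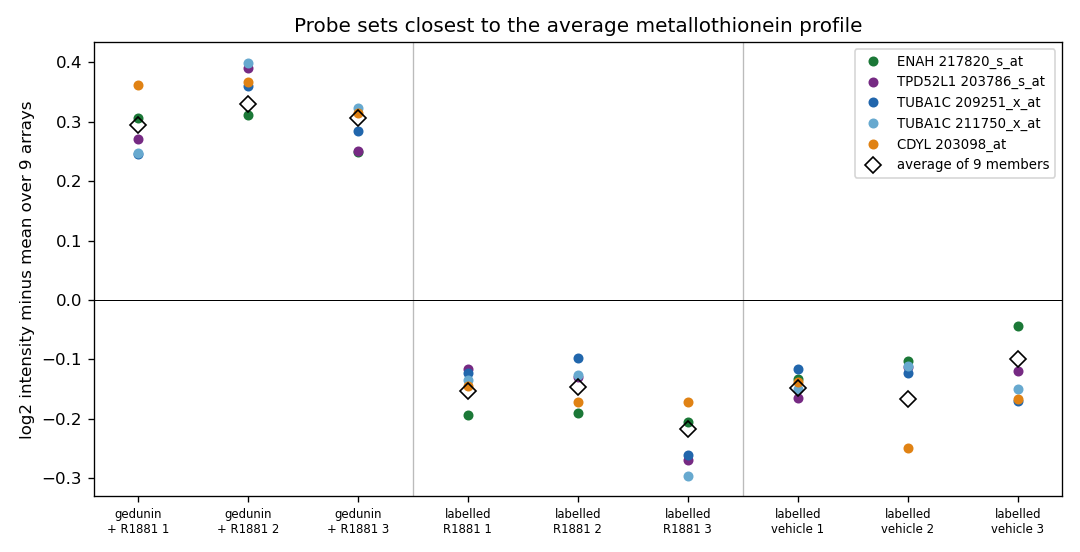
Log2 intensity minus its mean over 9 arrays for the average of 9 metallothionein probe sets (open diamonds) and the 5 probe sets closest to it (dots), by array. All 6 series lie above 0 on the 3 gedunin arrays and below 0 on the other 6.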

How the data were processed

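RNA of 9 LNCaP cultures was measured on Affymetrix arrays, 3 per group, with groups taken from the titles. Linear-scale intensities were deposited, 1 per probe set and array, and the submitters' processing notes name RMA as the summary; its version is not given in the sources used here. RMA gives all arrays nearly the same distribution, which hides any change in the total RNA of a cell. The number of arrays sets the precision.

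The analysis used log2 intensities of 22277 probe sets less 62 controls. Gene symbols came from the platform annotation, in which 19064 probe sets had 1 symbol, and all 11 member symbols matched RefSeq (GRCh38.p14) by gene ID. Limma 3.58.1 in R 4.3.3 fitted 1 coefficient per group over all 9 arrays and probe sets, with eBayes without trend (6.08 prior degrees of freedom), two-sided tests and Benjamini-Hochberg adjustment over 22215 probe sets at 0.05. The script was tested on simulated data. Errors of fold changes are SE, and errors of levels are SD.

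The members, gene lists and tests were chosen with earlier results of these data known. Every member probe set is named, as are MTF1, SLC30A1, HMOX1, up to 4 called genes per metal list and comparison with the largest change, and the 5 closest probe sets by likeness. HSPA6 and DNAJB1 are named outside this rule. Lists are described by counts and medians without a set test. Alternatives covered an offset, renormalisation, a filter on dim probe sets, the variance model, the arrays in the fit, array weights, a replicate block, each array left out and genes in place of probe sets.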

Additional observations from a re-analysis of the deposited data

How the results depend on the processing

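The 7 rises of metallothionein probe sets against labelled R1881 kept their calls under every alternative. Against labelled vehicle, MT1X at 204326_x_at lost its call in 6 of 16 alternatives, and the other rises kept theirs. Recomputing all member probe sets in all comparisons, called or not, gave 543 values. Of these, 529 stayed on their side of the threshold, 9 lost and 5 gained a call, and 0 reversed as a call. Leaving out 1 array at a time gave 7 to 7 member calls against labelled R1881, 6 to 7 against labelled vehicle, 7 to 7 by the F-test and 0 to 1 for labelled R1881 against labelled vehicle, where the call lost was the fall of MT1F (0 to 1 lower). Without R1881 replicate 3 that fall was lost while MT1X at 204326_x_at became a lower call (-0.22, adjusted p = 0.0423, against -0.14 with all arrays), so the count stayed at 1. With 1 array left out at a time, the median log2 fold change of the member probe sets ranged from 0.53 to 0.59 against labelled R1881. It ranged from 0.41 to 0.54 against labelled vehicle and from -0.06 to -0.01 between the labelled groups. An offset of 16 gave medians of 0.54 and 0.45 in the gedunin comparisons, renormalisation gave 0.52 against labelled R1881, leaving out dim probe sets 0.52 against labelled vehicle, and genes in place of probe sets 0.62 there. Between labelled R1881 and labelled vehicle, a trended, robust variance gave 2 member calls, 1 of them higher, renormalisation gave 1 higher and 0 lower, and genes in place of probe sets gave 0. With genes as the unit fewer features are tested, and 3624, 3277 and 3219 of all genes were called (labelled R1881 against labelled vehicle, then gedunin against each), beside 6007, 5406 and 5223 probe sets. The replicate numbers gave no clear pairing of the samples. Correlations between deviations of same-numbered arrays were -0.10 to 0.14, beside -0.15 to 0.16 for differently numbered arrays. Between labelled R1881 and labelled vehicle alone they were 0.05 to 0.14, beside -0.15 to 0.06, so pairing there is not settled. With the replicate block, member calls were 1, 7 and 7 and all calls 5897, 5297 and 5107. The fall of SLC31A1 between the labelled groups then did not pass (limma adjusted p = 0.0551). Dim probe sets (MT1M and the second MT1G set) limit what can be said of these genes. The causes of these shifts were not tested.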
